A study of Mus musculus with 12 samples.

Results

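The vascular endothelial growth factor (VEGF) ligands and receptors were followed through mouse mammary tissue and mammary tumors. The 9 genes were chosen by name: the ligands Vegfa, Vegfb, Vegfc and Pgf, the receptor tyrosine kinases Flt1, Kdr and Flt4, and the co-receptors Nrp1 and Nrp2. Of these, 7 headed a row of their own in all files, which held 23704 gene names for the Normal and Tumor samples and 23691 for the DMSO and C646 samples, with 23301 in both. Vegfb in all files, and Nrp1 in the Normal and Tumor files, were found only inside a row that joined them with a neighbouring gene, and their values are given as those of the joined row. The DMSO and C646 files held the joined Nrp1 row and a separate row as well.

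RNA-seq of poly-A RNA was done on 12 samples from 12-week-old female mice, 3 in each of 4 groups. Normal samples were mammary glands of untreated FVB wild type mice, each pooled from the abdominal and inguinal glands of several animals. Tumor samples were untreated thoracic tumors of MMTV-PyVT mice, 1 mouse per sample, in which the MMTV promoter drives a viral oncogene, the polyoma middle T antigen, mainly in the mammary epithelium. DMSO and C646 samples were tumors of MMTV-PyVT mice injected with the solvent DMSO or with C646, an inhibitor of the histone acetyltransferase p300, and the largest tumors of 3 mice per group were used. The labels give 1 mg/kg for both injections. Genotype, gland position, pooling and tumor changed together between Normal and Tumor, so their effects cannot be told apart.

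VEGF ligands are secreted by many cell types, and blood vessels and lymphatic vessels respond to them through receptor tyrosine kinases on their endothelial cells. VEGF-A, whose gene is induced by low oxygen through hypoxia-inducible factors (HIF), acts mainly through the receptor KDR (VEGFR2), while FLT1 (VEGFR1) also binds VEGF-B and placental growth factor and restrains signaling as a decoy. VEGF-C acts through FLT4 (VEGFR3) on lymphatic endothelium, and the neuropilins NRP1 and NRP2 bind both VEGFs and class 3 semaphorins.

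Positions are from GENCODE vM21 on GRCm38, the same assembly as the mm10 build to which the reads were mapped, and each span covers the whole gene with its exons and introns. The ligand genes were Vegfa at chr17:46016993-46032369 on the minus strand, Vegfb at chr19:6982473-6987651 on the minus strand, Vegfc at chr8:54077606-54187096 on the plus strand and Pgf at chr12:85166635-85177790 on the minus strand. The receptor genes were Flt1 at chr5:147561604-147726011 and Kdr at chr5:75932827-75978458, both on the minus strand, and Flt4 at chr11:49609263-49652739 on the plus strand. Nrp1 lay at chr8:128358604-128503363 and Nrp2 at chr1:62703285-62818695, both on the plus strand. Dnajc4, a co-chaperone gene at chr19:6987911-6992572, is the upstream neighbour of Vegfb on the same strand, and the microRNA gene Mir1903 at chr8:128359241-128359320 lies within Nrp1.

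The 250 bases upstream of the RefSeq transcript start (GRCm38.p6, the C57BL/6J reference and not the FVB strain of these mice) are shown for the ligands and receptors on which the results turn: Vegfa, which varied most among Tumor and among DMSO samples, Pgf, the only ligand higher in tumors, and the receptors Kdr and Flt1, which were lower together. Each is read 5′ to 3′ on the minus strand, at chr17:46032378-46032627 for Vegfa, chr12:85177314-85177563 for Pgf, chr5:75978456-75978705 for Kdr and chr5:147726012-147726261 for Flt1. Capitals mark the core of the HIF-binding element, ACGTG or GCGTG, on either strand.
Vegfa: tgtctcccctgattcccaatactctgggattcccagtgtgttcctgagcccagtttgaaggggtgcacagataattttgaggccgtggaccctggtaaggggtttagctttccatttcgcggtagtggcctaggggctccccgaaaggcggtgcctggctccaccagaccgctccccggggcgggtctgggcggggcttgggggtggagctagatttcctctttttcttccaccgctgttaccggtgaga
Pgf: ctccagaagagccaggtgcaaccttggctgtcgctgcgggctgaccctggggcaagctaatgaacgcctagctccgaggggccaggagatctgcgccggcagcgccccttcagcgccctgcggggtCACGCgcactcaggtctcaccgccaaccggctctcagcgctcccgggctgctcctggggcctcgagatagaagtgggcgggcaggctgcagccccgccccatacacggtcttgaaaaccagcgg
Kdr: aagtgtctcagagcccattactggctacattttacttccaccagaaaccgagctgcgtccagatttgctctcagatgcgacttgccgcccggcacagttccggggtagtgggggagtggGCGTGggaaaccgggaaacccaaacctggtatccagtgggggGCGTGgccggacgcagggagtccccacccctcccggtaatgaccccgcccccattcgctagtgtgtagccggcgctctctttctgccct
Flt1: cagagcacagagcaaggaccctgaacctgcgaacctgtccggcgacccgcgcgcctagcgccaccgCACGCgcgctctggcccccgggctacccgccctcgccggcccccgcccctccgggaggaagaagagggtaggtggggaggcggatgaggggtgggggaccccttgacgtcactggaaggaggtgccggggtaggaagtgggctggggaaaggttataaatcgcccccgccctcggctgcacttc

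The HIF core occurred at 0 places upstream of Vegfa, 1 of Pgf, 2 of Kdr and 1 of Flt1, and 38.6% of 32851 such windows held it at least once. The core bound by ETS factors, GGAAG on either strand, a family active in endothelial cells, occurred at 1 place for Vegfa, 0 for Pgf, 1 for Kdr and 3 for Flt1, against 64.1% of all windows with at least 1. The start used for Pgf lay 477 bases from the start of its GENCODE span. Vegfa and Pgf each had 2 such windows, of which 1 is shown. Bases further upstream were not searched, so the 0 for Vegfa does not mean that its promoter lacks a HIF core. These matches describe letters within the windows and not bound sites.

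Levels were given as FPKM, fragments per kilobase of transcript scaled to the mapped fragments of the library, so levels of different genes in a sample can be set side by side. In Normal tissue the joined Dnajc4 and Vegfb row was highest at 144.2 ± 25.25 FPKM (SD, n = 3), followed by Vegfa at 67.83 ± 9.885 (SD, n = 3). Then came the joined Mir1903 and Nrp1 row at 20.1 ± 2.259, Kdr at 15.26 ± 3.958, Nrp2 at 7.537 ± 0.8882, Flt1 at 5.464 ± 1.047, Pgf at 4.175 ± 0.9211, Vegfc at 2.529 ± 0.948 and Flt4 at 2.135 ± 0.221 FPKM (SD, n = 3 each). The Nrp1 row overlapped Kdr, and each neighbour in the order from Nrp2 down to Flt4 overlapped the next. In Tumor samples Pgf had moved to the second place at 37.87 ± 11.13 FPKM (SD, n = 3), between the Vegfb row at 61.49 ± 16.97 and Vegfa at 24.41 ± 11.19, and Pgf and Vegfa overlapped. All receptors and co-receptors lay between 0.5036 and 1.656 FPKM on average in Tumor samples, in the order Kdr, Nrp1 row, Flt1, Nrp2 and Flt4, with Vegfc at 0.8074 ± 0.2666 FPKM (SD, n = 3) between the last pair. In the injected tumors the 3 ligands Vegfa, Vegfb row and Pgf again had the highest levels, each overlapping the next in both groups, and no receptor averaged above 3.45 FPKM.

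**Figure D1:**
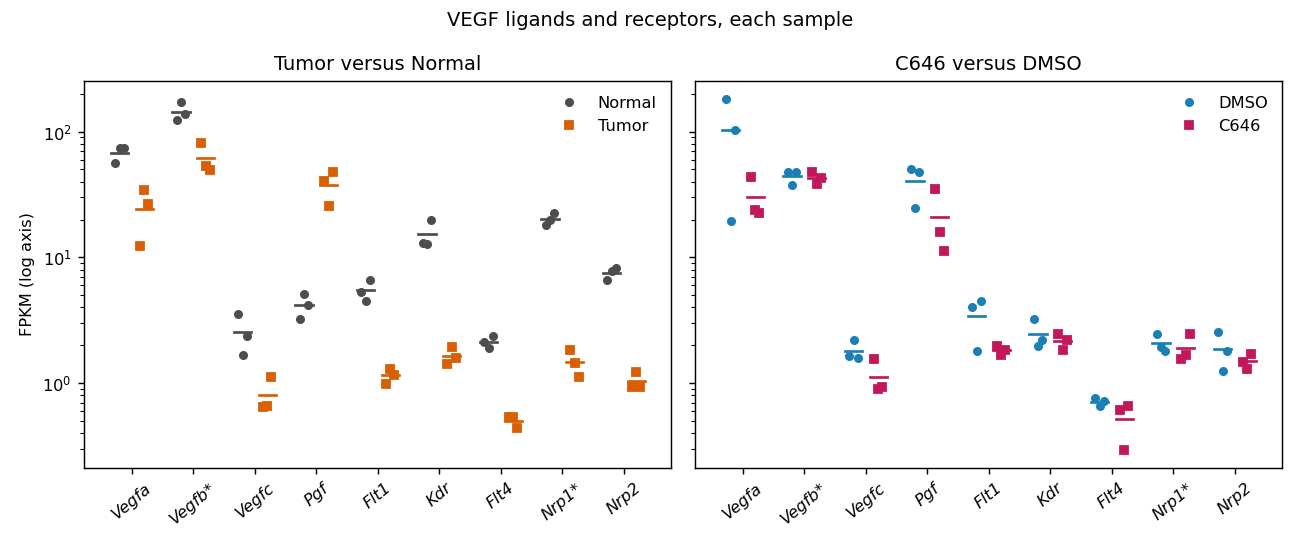
FPKM on a log axis for each VEGF gene and sample, with Normal and Tumor samples in 1 panel and DMSO and C646 tumors in the other. Points are single samples, short bars are the mean of 3 samples, and an asterisk marks a row that joins the gene with a neighbour. Pgf is the only gene higher in Tumor, at 25.77 to 47.68 FPKM against 3.241 to 5.082, and Vegfa spreads from 19.62 to 183 FPKM among DMSO tumors.

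The first comparison asked how the family differs between Normal mammary tissue and MMTV-PyVT tumors. Pgf was higher in tumors, while Vegfa, Vegfc, Flt1, Kdr, Flt4 and Nrp2 were lower, as were both joined rows. The test was limma on log2(FPKM + 0.03125), run over the 13031 genes that reached 1 FPKM in 3 or more of the 6 samples. Calls were made at a Benjamini-Hochberg adjusted p of 0.05 over all of these genes. Of the 7 genes with a row of their own 1 rose and 6 fell, where 28.8% of all genes tested rose and 31.7% fell (60.5% in either direction), and the median log2 fold change of all genes was -0.02. An unadjusted p under 0.05 was given to all 7 and to 64.8% of genes tested. None of the 7 overlapped between groups, and neither did the joined rows; of all genes, 33.1% were higher and 35.8% lower without overlap.

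Among ligands, Vegfa measured 56.42, 73.63 and 73.44 FPKM in Normal and 12.37, 34.48 and 26.4 FPKM in Tumor samples. Each tumor was below each Normal sample, and the tumors differed 2.788-fold among themselves. The log2 fold change was -1.59 (SE 0.359, limma adjusted p = 0.006895). Pgf, which encodes placental growth factor, measured 3.241, 5.082 and 4.203 FPKM in Normal and 40.15, 25.77 and 47.68 FPKM in Tumor samples. The lowest tumor was above the highest Normal sample by several fold, and the log2 fold change of 3.15 (SE 0.269, limma adjusted p = 9.305e-05) corresponds to 8.872-fold.

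Vegfc, the lymphatic growth factor, was low throughout, at 3.542, 1.663 and 2.383 FPKM in Normal and 0.6459, 0.6612 and 1.115 FPKM in Tumor samples. Its log2 fold change was -1.59 (SE 0.374, limma adjusted p = 0.008189), and with quantile normalization it was -0.76 and no longer called (adjusted p = 0.1184). The Vegfb row measured 123.1, 172.2 and 137.3 FPKM in Normal and 80.95, 53.76 and 49.75 FPKM in Tumor samples, a log2 fold change of -1.25 (SE 0.223, limma adjusted p = 0.002357). Fragments of Vegfb and of Dnajc4 cannot be told apart in this row. Figf, the row name for VEGF-D, a further FLT4 ligand, fell from 13.94, 11.24 and 12.94 FPKM to 0.4084, 0.4509 and 0.3209 FPKM, by 4.91 on the log2 scale (SE 0.223, limma adjusted p = 1.4e-05). Figf reached 1 FPKM only in Normal samples, so it entered the test only through the group in which it is high.

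Kdr, the main signaling receptor for VEGF-A, measured 13.1, 12.85 and 19.83 FPKM in Normal and 1.425, 1.955 and 1.586 FPKM in Tumor samples. The spread within each group was far smaller than the gap between them, and the log2 fold change was -3.16 (SE 0.232, limma adjusted p = 5.335e-05), or 8.954-fold lower. Flt1 measured 5.286, 4.517 and 6.588 FPKM in Normal and 0.9775, 1.307 and 1.168 FPKM in Tumor samples, a log2 fold change of -2.21 (SE 0.233, limma adjusted p = 0.0002203). Flt4 measured 2.131, 1.916 and 2.358 FPKM in Normal and 0.5384, 0.5341 and 0.4381 FPKM in Tumor samples, a log2 fold change of -2.02 (SE 0.275, limma adjusted p = 0.000681). Flt4 reached 1 FPKM only in Normal samples, so it too entered the test only through the group in which it is high.

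The co-receptors fell as well. The Nrp1 row measured 18, 19.82 and 22.49 FPKM in Normal and 1.846, 1.447 and 1.121 FPKM in Tumor samples. Its log2 fold change of -3.77 (SE 0.219, limma adjusted p = 2.635e-05) was the furthest from 0 of the 9 rows. Nrp2 measured 6.563, 7.746 and 8.303 FPKM in Normal and 0.9368, 1.219 and 0.9376 FPKM in Tumor samples, a log2 fold change of -2.84 (SE 0.211, limma adjusted p = 5.585e-05). Among tumors only replicate 2 reached 1 FPKM for Nrp2 and only replicate 3 for Vegfc, so both needed their Normal levels to enter the test. Flt1 needed them as well, since Tumor replicate 1 was under 1 FPKM. Levels near 1 FPKM make these fold changes depend on the constant added before the logarithm, and with 1 FPKM added the log2 fold change of Flt4 was -1.06, that of Flt1 -1.58, that of Vegfc -0.94, that of Nrp2 -2.07 and that of the Nrp1 row -3.10.

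**Figure D2:**
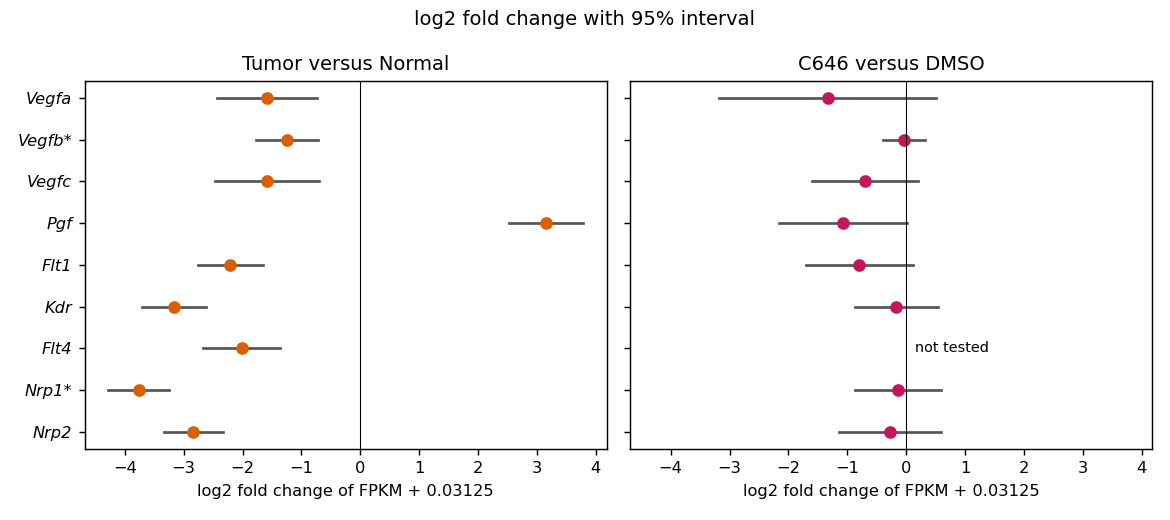
Log2 fold change of FPKM + 0.03125 for each VEGF gene, Tumor versus Normal in 1 panel and C646 versus DMSO in the other on the same axis. Points are limma estimates, bars are 95% intervals, the vertical line marks no change, and an asterisk marks a joined row. For Tumor versus Normal no interval reaches 0, and for C646 versus DMSO each interval includes 0, with Flt4 under the minimum level.

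Since VEGF receptors are endothelial genes, their levels were read beside those of blood endothelial cells. All 16 blood endothelial markers fell in tumors, beside 31.7% of all genes tested. Their median log2 fold change was -2.14, their summed level was 386 to 423 FPKM in Normal and 74.59 to 142.9 FPKM in Tumor samples, and no marker was at 0. Some of the 16 reached 1 FPKM in a single tumor, so they needed their Normal levels to enter the test. Pecam1, an endothelial adhesion gene, measured 53.67, 52.82 and 64.52 FPKM in Normal and 10.3, 9.258 and 5.333 FPKM in Tumor samples, and Cdh5, the endothelial cadherin, measured 27.5, 24.41 and 30.25 against 4.912, 5.106 and 3.538 FPKM. In bulk tissue fewer endothelial cells and less of an RNA per cell cannot be told apart. Of the lymphatic markers 3 of 5 found were tested and all 3 fell. Lyve1 measured 12.79 to 20.86 FPKM in Normal and 0.4132 to 1.316 FPKM in Tumor samples, so it entered the test only with its Normal levels. Prox1, the defining transcription factor, was under 0.63 FPKM in every sample and was not tested.

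To set each gene against the vessels, the mean log2 level of the 16 blood endothelial markers was subtracted from its own in each sample. The change of this difference from Normal to Tumor was 5.30 for Pgf, 0.90 for the Vegfb row, -1.62 for the Nrp1 row, -1.02 for Kdr and -0.69 for Nrp2, and for these 5 the groups did not overlap (exact two-sided permutation test, p = 0.1 each, the smallest that 3 against 3 samples can give, and 0.36 after adjustment over 18 such tests). Kdr was at 0.7019, 0.7128 and 0.9982 times the markers' geometric mean in Normal and at 0.2507, 0.4632 and 0.5203 times in Tumor samples. The Nrp1 row was at 0.9636, 1.099 and 1.132 times in Normal and at 0.3232, 0.3448 and 0.3705 times in Tumor samples. Against the markers the groups overlapped for Flt1, Flt4, Vegfa and Vegfc, with changes of -0.06 (exact permutation p = 0.9), 0.13 (p = 0.6), 0.56 (p = 0.4) and 0.56 (p = 0.5). With Pecam1 and Cdh5 alone as markers, the change was -0.45 for Kdr (exact permutation p = 0.3) and -0.12 for Nrp2 (p = 0.7). The groups of Kdr and of Nrp2 then overlapped, and the change of Flt1 turned to 0.51. The design cannot reach p under 0.05 for any of these differences. The markers had a median log2 fold change of -2.14 beside -0.02 for all genes, so a gene without change of its own rises on this scale. The Vegfb row rose on it while its own log2 fold change was -1.25. The share of all genes without overlap on this scale was not computed.

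**Figure D3:**
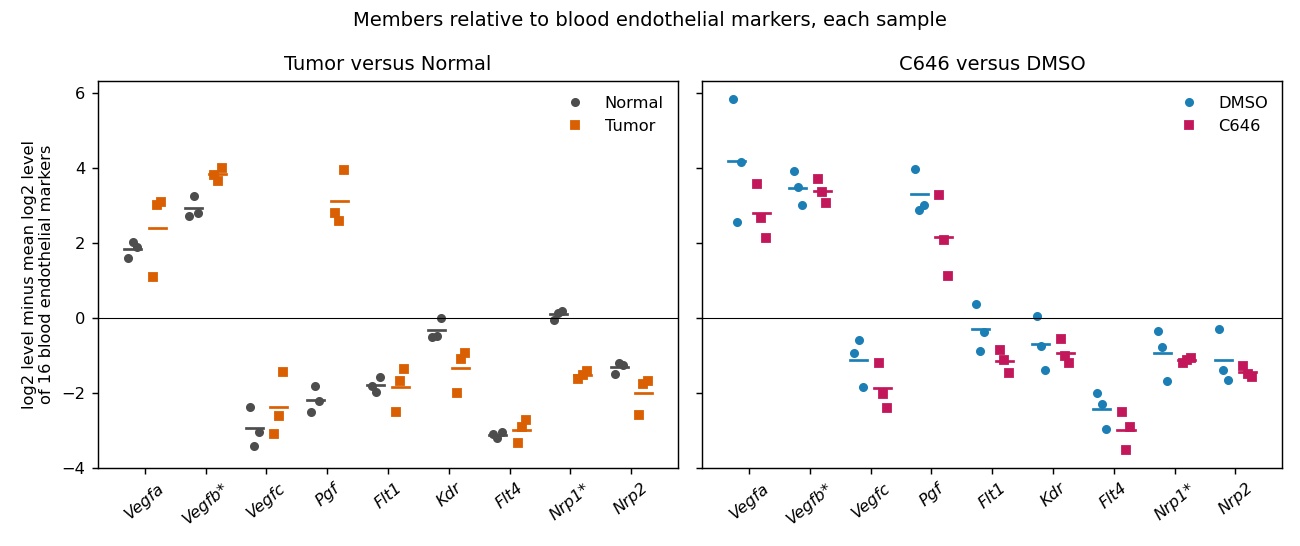
Log2 level of each VEGF gene minus the mean log2 level of 16 blood endothelial markers, by sample, for both experiments. Points are single samples, short bars are means of 3, and an asterisk marks a joined row. Pgf is higher against the markers in Tumor by 5.30 on the log2 scale, and the Nrp1 row, Kdr and Nrp2 are lower by 1.62, 1.02 and 0.69.

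The ratio of Vegfa to Kdr levels was 4.298, 5.718 and 3.7 in Normal and 8.512, 17.37 and 16.34 in Tumor samples. All 3 tumors were above all 3 Normal samples, by 1.58 on the log2 scale (exact permutation p = 0.1, 0.6 after adjustment over 6 ratio tests). Both genes were lower in tumors, Vegfa with a log2 fold change of -1.59 and Kdr with -3.16. A gene without change of its own would therefore rise further against Kdr than Vegfa did. The share of all genes without overlap against Kdr was not computed. The ratio of Vegfa to Flt1 was 10.62, 16.2 and 11.1 in Normal and 12.29, 25.8 and 22.03 in Tumor samples and overlapped (difference 0.62, exact permutation p = 0.2). The ratio of Vegfc to Flt4 overlapped too, at 0.8702 to 1.652 in Normal and 1.189 to 2.442 in Tumor samples (difference 0.43, exact permutation p = 0.4).

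Downstream of the receptors, 33 of 34 VEGF signaling genes were tested, of which 7 rose and 11 fell in tumors, with a median log2 fold change of -0.01. Hspb1, a heat shock protein phosphorylated after KDR activation, rose from 60.58 to 69.07 FPKM in Normal to 160.1 to 305.4 FPKM in Tumor samples, and the kinase Src rose from 10.2 to 14.33 to 27.5 to 34 FPKM. Ptprb, the vascular endothelial phosphatase, fell by 3.27 and Nfatc1, a calcineurin-dependent transcription factor, by 3.23 on the log2 scale, and Ptprb was under 1 FPKM in all tumors. Of 16 genes known to be induced by VEGF in endothelial cells, 4 rose and 8 fell, with a median of -0.91. Apln, the apelin ligand, rose from 2.077 to 3.52 to 8.928 to 44.7 FPKM and Kcne3, a potassium channel subunit, from 0.6259 to 2.42 to 3.445 to 8.357 FPKM. Hhex, a homeobox factor of endothelial and blood progenitors, fell by 3.16 and Angpt2, the TEK ligand angiopoietin 2, by 2.22 on the log2 scale. Hhex and Angpt2 were under 1 FPKM in all tumors, so that they, like Ptprb, entered the test only through their Normal levels.

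Among 13 semaphorin, plexin and adaptor genes that partner with neuropilins, 9 were tested, of which 6 fell and 2 rose, with a median log2 fold change of -1.54. The ligands Sema3c and Sema3g fell by 3.09 and 3.04, while the plexin receptor Plxna3 rose by 1.29 and the NRP1-binding adaptor Gipc1 by 1.26. Sema3g was under 1 FPKM in Tumor replicates 2 and 3, so it needed its Normal levels to enter the test. Of 9 genes of the VEGF-C and VEGF-D axis besides Vegfc and Flt4, 7 were tested, of which 4 fell and 2 rose, with a median of -1.03. Beside Figf, Svep1, an extracellular matrix protein, fell by 2.66, and the proprotein convertases Pcsk7 and Furin, which can cleave VEGF-C, rose by 0.91 and 0.49. Called by limma at the same threshold, these lists are read beside the 28.8% of all genes that rose and the 31.7% that fell.

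The HIF pathway list held HIF subunits, their regulators and known HIF targets other than Vegfa. Of its 20 genes 7 rose and 6 fell in tumors, beside 28.8% and 31.7% of all genes, with a median log2 fold change of -0.07. Car9, a carbonic anhydrase, rose from 0.2599 to 0.5301 FPKM to 7.157 to 16.37 FPKM and Egln3, a HIF prolyl hydroxylase, from 6.511 to 9.168 to 35.79 to 95.94 FPKM. Car9 was under 1 FPKM in all Normal samples and entered the test only through its Tumor levels. Pfkfb3, a glycolysis regulator, fell by 4.55 and Bnip3, a mitophagy receptor, by 2.64 on the log2 scale. The list's mean log2 level overlapped between groups, at 4.29 to 4.50 in Normal and 4.15 to 4.88 in Tumor samples, while Vegfa did not overlap. Within Tumor samples Vegfa and the list had the same order, lowest in replicate 1 and highest in replicate 2.

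Markers of other cell types moved with these differences, and their part in them was not tested. All 10 adipocyte markers fell, with a median log2 fold change of -6.91 and sums of 18130 to 23180 FPKM in Normal and 104.4 to 1356 FPKM in Tumor samples, and Lep was at 0 in Tumor replicate 2. The highest of these tumor sums was in replicate 1, which had the lowest Vegfa. All 4 brown fat, all 6 lymphocyte, 6 of 8 mural, 5 of 8 macrophage and 1 of 3 tested red blood cell markers fell. By contrast 7 of 8 epithelial, all 6 skeletal muscle and 1 of 8 mural markers rose. These limma calls are read beside the 31.7% of all genes tested that fell and the 28.8% that rose. Mural sums overlapped, at 105.1 to 122.2 FPKM in Normal and 72.63 to 125.8 FPKM in Tumor samples. Lymphocyte sums were 276.3 to 362.2 FPKM in Normal and 0.6002 to 0.6419 FPKM in Tumor samples. The B cell gene Ms4a1 was at 0 in all 3 tumors. No lymphocyte marker reached 1 FPKM in a tumor, so all 6 entered the test only through their Normal levels. Skeletal muscle sums were 10.76 to 82.61 FPKM in Normal and 1549 to 4384 FPKM in Tumor samples. Adipoq, the adipokine that defines adipocytes, measured 1207, 1517 and 1400 FPKM in Normal and 58.22, 1.565 and 3.205 FPKM in Tumor samples, and Epcam, an epithelial adhesion gene, averaged 104.7 ± 39.77 FPKM in Normal and 797.8 ± 178.9 FPKM in Tumor samples (SD, n = 3 each).

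The second comparison asked how injection of the p300 inhibitor changed the family in tumors. Of the 6 genes with a row of their own that were tested, limma called 0 in either direction, against 0.00% of 12083 genes tested. The smallest adjusted p of any gene was 0.9898, and 384 genes (3.18%) had an unadjusted p under 0.05, none of them among the 6. The group means of all 6 were lower with C646, but each 95% interval of the difference included 0. Without overlap, 4.04% of all genes tested were higher and 4.52% lower with C646, and of the 6 only Vegfc was in this class.

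Vegfa measured 183, 19.62 and 103.8 FPKM in DMSO tumors and 43.83, 23.61 and 22.41 FPKM in C646 tumors. A pair of DMSO tumors was above all C646 tumors and the remaining tumor was below them, so the groups overlapped, and the DMSO tumors differed 9.326-fold among themselves. The log2 fold change was -1.34 (95% interval -3.17 to 0.50, limma adjusted p = 0.9898). It was -2.27 without DMSO replicate 2 (adjusted p = 0.1695) and -0.66 without DMSO replicate 1 (adjusted p = 0.9633). Across all alternatives and left-out samples the adjusted p lay between 0.1695 and 0.9997.

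Pgf measured 50.08, 24.56 and 47.49 FPKM in DMSO and 35.29, 15.84 and 11.24 FPKM in C646 tumors. The groups overlapped through DMSO replicate 2 and C646 replicate 1, and the log2 fold change was -1.07 (95% interval -2.16 to 0.02, limma adjusted p = 0.9898). Vegfc measured 1.631, 2.22 and 1.599 FPKM in DMSO and 1.556, 0.893 and 0.9381 FPKM in C646 tumors. Its groups were separated by a narrow gap, and the log2 fold change was -0.70 (95% interval -1.59 to 0.19, limma adjusted p = 0.9898). The Vegfb row was nearly the same in both groups, at 47.65, 37.39 and 47.47 FPKM in DMSO and 48, 38.22 and 42.98 FPKM in C646 tumors. Its interval was the narrowest, from -0.39 to 0.32 around a log2 fold change of -0.03.

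Flt1 measured 4.049, 1.807 and 4.493 FPKM in DMSO and 1.985, 1.686 and 1.833 FPKM in C646 tumors. Replicates 1 and 3 of DMSO were above all C646 tumors, as for Vegfa, while replicate 2 lay among the C646 tumors, and the log2 fold change was -0.80 (95% interval -1.71 to 0.11, limma adjusted p = 0.9898). Kdr measured 3.236, 1.976 and 2.187 FPKM in DMSO and 2.454, 1.828 and 2.201 FPKM in C646 tumors, with a log2 fold change of -0.17 (95% interval -0.86 to 0.53). Flt4 measured 0.7567, 0.6581 and 0.7178 FPKM in DMSO and 0.6156, 0.2926 and 0.657 FPKM in C646 tumors. It was under the minimum level in all 6 tumors and was not tested, and its groups were separated by less than the spread within either.

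Nrp2 measured 2.559, 1.244 and 1.816 FPKM in DMSO and 1.48, 1.297 and 1.691 FPKM in C646 tumors, a log2 fold change of -0.27 (95% interval -1.14 to 0.60). The joined Nrp1 row measured 2.476, 1.925 and 1.808 FPKM in DMSO and 1.568, 1.683 and 2.442 FPKM in C646 tumors, a log2 fold change of -0.14 (95% interval -0.87 to 0.59). The files of this experiment also held a separate row named Nrp1 alone, at 0.8306, 0.6677 and 0.8915 FPKM in DMSO and 1.168, 1.675 and 3.273 FPKM in C646 tumors. It reached 1 FPKM only in C646 tumors, so it entered the test only through the group in which it is high. Its values were higher with C646 without overlap, with a log2 fold change of 1.20 (95% interval 0.08 to 2.33, limma adjusted p = 0.9898), and it was among the 384 genes with an unadjusted p under 0.05. The sources used here do not give which transcripts either row covers, so no direction for Nrp1 as a whole was taken from them.

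Against the 16 blood endothelial markers the values of each gene of the family overlapped between C646 and DMSO tumors. The changes ran from -1.39 for Vegfa (exact permutation p = 0.3) to -0.09 for the Vegfb row (p = 0.8), and the lowest p was 0.2, for Vegfc and Flt1. For Flt1 the change was -0.86, and it reached the smallest p of 0.1 (exact permutation) with 1 FPKM added, at -0.60, and with Pecam1 and Cdh5 alone as markers, at -0.78. The markers' summed level was 84.59, 84.49 and 165.9 FPKM in DMSO and 96.49, 91.98 and 127.2 FPKM in C646 tumors, and of 12 tested 0 were called, with a median log2 fold change of 0.00. The ratio of Vegfa to Kdr was 56.01, 9.791 and 46.81 in DMSO and 17.65, 12.72 and 10.05 in C646 tumors (difference -1.17, exact permutation p = 0.4). The ratio of Vegfa to Flt1 was 44.85, 10.69 and 22.95 against 21.75, 13.76 and 12.04 (difference -0.54, exact permutation p = 0.6), and that of Vegfc to Flt4 was 2.11, 3.266 and 2.176 against 2.454, 2.854 and 1.408 (difference -0.20, exact permutation p = 0.7).

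The HIF pathway list varied widely among these tumors. Its mean log2 level was 5.72, 4.22 and 5.51 in DMSO and 4.64, 4.26 and 4.04 in C646 tumors, so that DMSO replicates 1 and 3, then C646 replicates 1 and 2, were highest for the list as they were for Vegfa. Of the 20 genes limma called 0, and 18 had a log2 fold change below 0, with a median of -0.73 beside -0.01 for all genes. Ero1l, an endoplasmic reticulum oxidase, was the only gene of the list without overlap, at 77.92, 16.99 and 39.49 FPKM in DMSO and 15.6, 16.36 and 12.66 FPKM in C646 tumors (log2 fold change -1.34, adjusted p = 0.9898). The part of this list's variation in the Vegfa values was not tested.

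**Figure D4:**
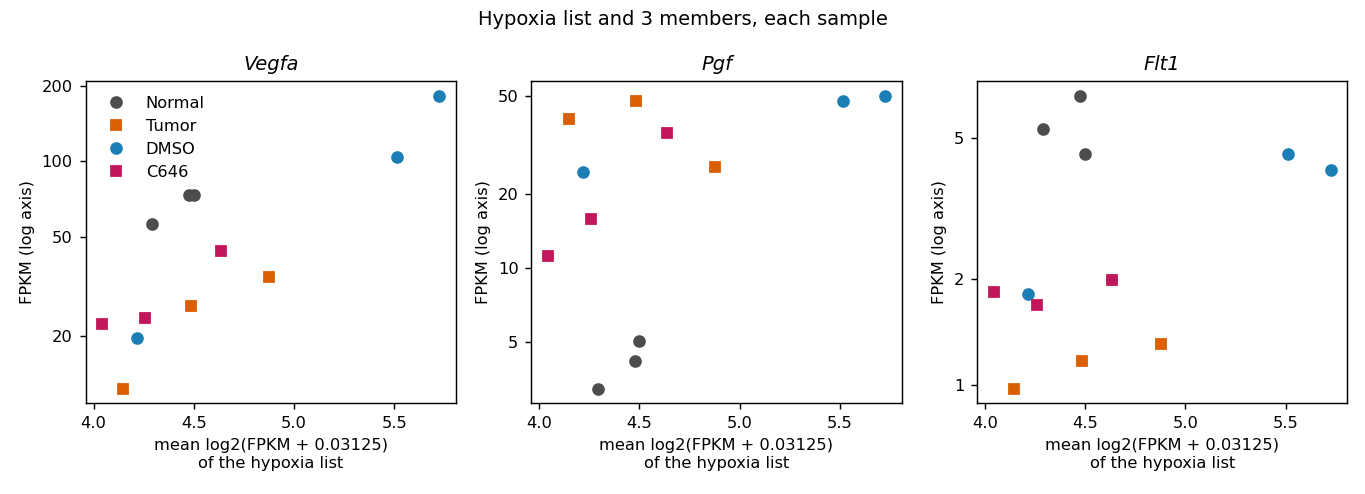
FPKM of Vegfa, Pgf and Flt1 on a log axis against the mean log2(FPKM + 0.03125) of the 20 genes of the HIF pathway list, by sample, with group by color and marker. DMSO replicates 1 and 3 lie apart at list levels of 5.72 and 5.51 and have the highest Vegfa, 183 and 103.8 FPKM. The 2 experiments were processed as separate tables, so positions are to be compared within an experiment.

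Other lists of the pathway gave 0 calls with C646: of 31 signaling genes tested the median log2 fold change was -0.04, of 14 VEGF-induced genes -0.22, of 7 neuropilin partners -0.23 and of 6 genes of the VEGF-C and VEGF-D axis -0.03. Without overlap, 1 signaling gene was higher and 3 were lower, 2 VEGF-induced genes were lower, and 1 neuropilin partner was higher and 1 lower, beside 4.04% higher and 4.52% lower of all genes. By the size of the change 1 gene of each of these lists is named. Dab2, an endocytic adaptor, lay higher without overlap, at 13.04, 12.07 and 11.41 FPKM in DMSO and 15.29, 18.17 and 17.02 FPKM in C646 tumors. Kcne3 lay lower without overlap, at 6.364, 9.979 and 7.545 against 4.181, 5.643 and 4.19 FPKM, and Plxna3 higher, at 7.293, 10.81 and 6.018 against 11.1, 10.89 and 11.54 FPKM. None of the 3 passed the adjusted threshold.

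Tissue markers differed among the injected tumors too, and their part in the VEGF values was not tested. The summed adipocyte markers were 16.51, 53.59 and 60.76 FPKM in DMSO and 72.41, 286.4 and 330.4 FPKM in C646 tumors, with Adipoq at 0 in DMSO replicate 3 Plin1, Cidec, Lep and Retn at 0 in DMSO replicate 1, and Acvr1c at 0 in DMSO replicate 3 and C646 replicate 1. Skeletal muscle sums were 0.7739, 1.693 and 346.9 FPKM in DMSO and 341.5, 1.996 and 312.5 FPKM in C646 tumors, so muscle RNA was high in DMSO replicate 3 and in C646 replicates 1 and 3, while Acta1, Myh4, Myh1 and Tnnt3 were each at 0 in at least 1 of the other tumors. Of 7 adipocyte markers tested all 7 had a log2 fold change above 0 with C646, with a median of 4.295. Without overlap 5 of them were higher, beside 4.04% of all genes tested. Values at 0 make these fold changes depend on the constant added before the logarithm. The 6 skeletal muscle markers had a median of 2.915, and 0 were without overlap. Limma called 0 genes in any marker list, as over all 12083 genes tested, and the lymphocyte list had none at the minimum level. Pearson's r between samples of a group, over genes, was 0.8875 to 0.9232 among DMSO tumors and 0.9512 to 0.9587 among C646 tumors, so the DMSO tumors were the less alike.

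Over all 12 samples, Bnip3l, Ciart and Iigp1 had the patterns most like that of Vegfa among 11873 genes, with Pearson's r of log2 levels from 0.90 to 0.95. After removal of the 4 group means, so that only differences among samples of a group remained, these were Agpat5, Pgk1, Bnip3, Cd47 and Egln1, with r from 0.96 to 0.99. Pgk1, a glycolytic enzyme, Bnip3 and Egln1, a HIF prolyl hydroxylase, belong to the HIF pathway list. In the same measure Flt1 stood at rank 72 (r = 0.86), Nrp2 at rank 130 (r = 0.83) and Pgf at rank 918 (r = 0.57). Kdr had an r of 0.68, the Vegfb row 0.17, the Nrp1 row -0.06 and Vegfc -0.12. For Kdr over the 12 samples the nearest genes were Me1, Uck1, Nrp2, Pex13 and Pdp2 with r from 0.98 to 0.99, the Nrp1 row stood at rank 14 (r = 0.98), and Pgf ran the other way (r = -0.85). After removal of group means the nearest to Kdr were Btbd10, Ugp2, Ppm1l, Paics and Rab1, with r from 0.91 to 0.97, and Nrp2 stood at rank 72 (r = 0.80). These correlations describe 12 samples from separately made tables, in which group differences, tissue makeup and library size are shared by the genes. After removal of group means, those with Vegfa rest mostly on the DMSO tumors, where Vegfa spread from 19.62 to 183 FPKM. Whether they hold within each of the other groups was not tested. Since only the DMSO and C646 tables held a separate Nrp1 row, the joined Nrp1 row may not measure the same transcripts in both experiments. Its correlations over the 12 samples carry that limit.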

How the data were processed

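RNA-seq of poly-A RNA was analysed in 12 samples, 3 in each of 4 groups taken from the labels. The libraries did not keep the strand. The authors trimmed adaptors with Cutadapt, mapped the reads to mm10 with TopHat2 2.1.1 and computed FPKM per gene with Cufflinks 2.2.1, and they deposited a table of FPKM for each sample. The Normal and Tumor tables held 26220 rows and those of DMSO and C646 held 24304 rows, so the tables were made separately, and each comparison was tested within its own. The row counts do not show whether the libraries or the sequencing were separate. FPKM holds no read counts, and the depth per library is unknown. Steps in the lowest values put Tumor replicate 1 at 0.655 times the depth of Tumor replicate 3. Among injected tumors they linked DMSO replicates 1 and 2 and C646 replicates 2 and 3 within 1.310-fold. DMSO replicate 3 was linked with C646 replicate 1 at 1.329-fold, and these sets were not linked to each other.

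Rows without a name were dropped (1837 in the Normal and Tumor tables), and rows that shared a name were summed. Vegfb and Nrp1 took the row that joins their name with a neighbour. The test was limma (version 3.58.1 under R 4.3.3, lmFit and then eBayes with a variance trend). It ran on log2(FPKM + 0.03125). Genes entered it when 3 or more of the 6 samples reached 1 FPKM, and p-values were adjusted by Benjamini-Hochberg over all that entered. Fold changes are on this scale and understate changes of low genes. Levels against endothelial markers and ligand to receptor ratios were tested with exact two-sided permutation tests over all 20 splits. In simulated data 200 genes were changed, 66 or 67 at each log2 size of 1, 2 and 3. Of these limma found 29.9%, 80.6% and 95.5% by size, among 13031 genes like those of Normal and Tumor. Among 12083 genes like those of DMSO and C646 it found 32.8%, 70.1% and 84.8%. With no gene changed limma called 0 in either simulation. In the real Normal and Tumor data 60.5% of genes were called, so the simulated rates do not describe that comparison.

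The members and the gene lists were chosen with earlier results of these data known. All 9 members were named. Of each list, the rule named up to 2 called genes with the largest change in each direction, or, with none called, the gene with the largest change among those without overlap; the marker lists of cell types are given by counts and by defining genes (Pecam1, Cdh5, Prox1, Lyve1, Adipoq and Epcam), and any further marker named at 0 was picked after its values were seen. Replicate numbers were tried as pairs: deviations from group means of same-numbered samples had r of -0.04, -0.10 and 0.01 for Normal and Tumor and 0.18, 0.07 and 0.11 for DMSO and C646, so they did not pair the samples. The alternatives were other pseudocounts, no filter, median ratio scaling, quantile normalization, no variance trend, the highest row of a repeated name, a replicate block and leaving out each sample. Raw reads and chromatin data were not used here. Figures and other computations used Python 3.11.15, numpy 2.4.6, pandas 2.3.3 and matplotlib 3.10.9.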

Additional observations from a re-analysis of the deposited data

How the results depend on the processing

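For Tumor versus Normal, the higher call (1 gene) and the 6 lower calls were the same under each alternative, except that quantile normalization gave 5 lower (Vegfc, log2 fold change -0.76, adjusted p = 0.1184) and leaving out any Normal replicate gave 5, since Flt4 then missed the minimum level and was not tested. Quantile normalization moved the median log2 fold change of all genes from -0.02 to 0.12. With the replicate block the members gave 1 higher and 6 lower as well, and over all genes 3439 rose and 3827 fell against 3758 and 4128. It gave 0 calls for C646, and it changed no call of a member. Over all gene lists together, 36 rose and 86 fell, and leaving out a sample gave 32 to 37 and 65 to 88. Leaving out DMSO replicate 2 gave 12 genes lower with C646, none of them a member, where every other setting gave 0.

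Directions near 0 turned. Against endothelial markers in Tumor, Flt1 went from -0.06 to 0.23 with 1 FPKM added and to 0.51 with Pecam1 and Cdh5 alone, and ran from -0.31 to 0.27 with a sample left out, as Flt4 ran from -0.009 to 0.30. With C646, leaving out a sample gave -0.32 to 0.13 for the Vegfb row, -0.57 to 0.15 for Kdr, -0.57 to 0.10 for the Nrp1 row, -0.61 to 0.079 for Nrp2 and -0.41 to 0.10 for the ratio of Vegfc to Flt4. The log2 fold change of the Vegfb row with C646 was 0.045 with quantile normalization and -0.149 to 0.049 with a sample left out, with 0.025 without DMSO replicate 1, 0.023 without DMSO replicate 3 and 0.049 without C646 replicate 2, and that of Kdr was -0.307 to 0.045, turning without DMSO replicate 1. The cause was not tested. The other 240 log2 fold changes of members kept their direction and their side of the threshold. The permutation tests cannot pass 0.05 under any setting. With 3 samples a group, the 95% interval of Vegfa under C646 spans -3.17 to 0.50, and FPKM gives no counting error for the low receptors.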

Other observations

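Values of Vegfa and Pgf in untreated and solvent-injected tumors can be read side by side but were not tested, since the tables were made separately. Vegfa was 12.37 to 34.48 FPKM in untreated tumors and 19.62 to 183 FPKM in DMSO tumors, with DMSO replicates 1 and 3 above each untreated tumor. Pgf was 25.77 to 47.68 FPKM in untreated and 24.56 to 50.08 FPKM in DMSO tumors. Adm, a HIF target that encodes the vascular peptide adrenomedullin and was picked here after its values were seen, measured 46.34, 4.481 and 48.17 FPKM in DMSO and 9.259, 3.276 and 1.447 FPKM in C646 tumors. Igfbp3, a VEGF-induced gene picked in the same way, measured 78.27, 22.83 and 141.7 FPKM in DMSO and 30.05, 17.44 and 13.57 FPKM in C646 tumors. Both had their lowest DMSO value in replicate 2, where Vegfa was lowest too, and neither passed the adjusted threshold.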
